A study of Bos taurus with 12 samples.

Results

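The expression of 45 cell cycle and kinetochore genes was examined in the mammary gland (MG) of early lactation, multiparous Holstein cows. The genes were taken from a list of symbols, and each was represented by its brightest probe among those whose RefSeq accession names the gene. A probe was found for 40 of the 45 genes, out of 12639 genes named on the array. MKI67, TOP2A, MCM2, CENPA and CENPE were not matched to a probe and are not analysed here. The 40 genes had 85 probes, and 28 genes had more than 1. The study asked how underfeeding alters the MG response to lipopolysaccharide (LPS), a component of bacterial outer membranes that provokes an acute inflammation. Control cows (CONT, n = 6) stayed on the lactation diet, whereas restricted cows (REST, n = 6) were given for 4 d a ration in which barley straw made up 48% of the dry matter. In all 12 cows 1 healthy rear gland of the udder received 50 µg of LPS, and the biopsies were taken 24 h later, so that CONT was also challenged and no unchallenged gland was analysed here. Every cow had a one-color array of its own, made without pooling from approximately 50 mg of whole tissue of its biopsy.

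A dividing cell first copies its DNA and then separates the copies on the mitotic spindle. The kinetochore is the protein assembly on each centromere that holds spindle microtubules, and the spindle checkpoint delays chromosome separation until every kinetochore is attached. Many of the genes encoding these proteins are transcribed mainly in dividing cells and are therefore used as markers of proliferation. The secretory epithelium of the lactating gland is mostly not dividing, while the biopsy also holds stromal, vascular and immune cells. In such whole-tissue samples fewer dividing cells and less RNA per dividing cell cannot be told apart.

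Values are log2 signals from which the 75th percentile of the array was subtracted, so that a negative value lies below that percentile. This percentile was an intensity of 577 to 1184 in CONT and of 387 to 1082 in REST. The arrays came from 3 slides of 4 arrays, and the negative controls were brighter on slide 1 (3 CONT and 1 REST, 37.7 to 58.2) than on slide 2 (1 CONT and 3 REST, 18.2 to 19.6) and slide 3 (2 CONT and 2 REST, median 19.3). Differences within slide 1 thus rest on 1 REST cow, and those within slide 2 on 1 CONT cow. The tissue label was met by its markers, since all 8 milk-producing epithelium genes with a probe, among them CSN1S1, CSN3 and LALBA, were well above background on all 12 arrays. Feature Extraction called 21 of the 40 cell cycle genes well above background on all 12 arrays, 18 on 1 to 11 arrays and CCNE2 on none. No spot of these genes was saturated. Detection on every array was most complete for the replication genes (10 of 11), whereas it held for 3 of 7 mitotic cyclins and kinases, 4 of 10 checkpoint genes, 3 of 5 kinetochore genes, 1 of 5 spindle motors and midzone genes and for neither gene of the chromosomal passenger complex.

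None of the 40 cell cycle genes differed between REST and CONT after adjustment over all probes (limma, Benjamini-Hochberg, adjusted p of 1.00 for each), and 1 gene, KNTC1, had an unadjusted p under 0.05. That is 2.5% of the members, against 2.64% of all named genes. Of the 43653 probes, 0 passed the Benjamini-Hochberg threshold and 2.62% (1143) had an unadjusted p under 0.05, and the Westfall-Young adjustment of the study's methods also called 0 (lowest p 0.3). With that adjustment the study listed changed genes, KNTC1 among them, which were not recovered here with 100 splits. The mean was lower in REST for 28 members (70%) and higher for 12, and the split was even (20 and 20) without REST cow 5. Of all named genes, 56.5% had a lower and 43.5% a higher mean. The median log2 difference (REST minus CONT) was -0.13 over the members and -0.034 over all named genes. No member had groups without overlap, which occurred in 0.15% of named genes. The sign of the median was not stable, since it was 0.13 with slide as a block (24 genes higher, all named genes 0.012) and 0.18 with the intensity of the array as a covariate (29 higher, all named genes -0.026).

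Besides KNTC1, the log2 differences ran from -0.47 (CKS2) to 0.66 (BUB1), and the smallest unadjusted p was 0.122. The standard errors limited what could be seen, with a median of 0.34 and a range from 0.12 (BUB3) to 0.70 (KIF11). In 20 of the other 39 genes the 95% interval lay within 1 log2 unit of 0 on both sides, whereas in 19 it reached a difference of that size. Only 7 of the 40 differences were larger than their own standard error.

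**Figure D1:**
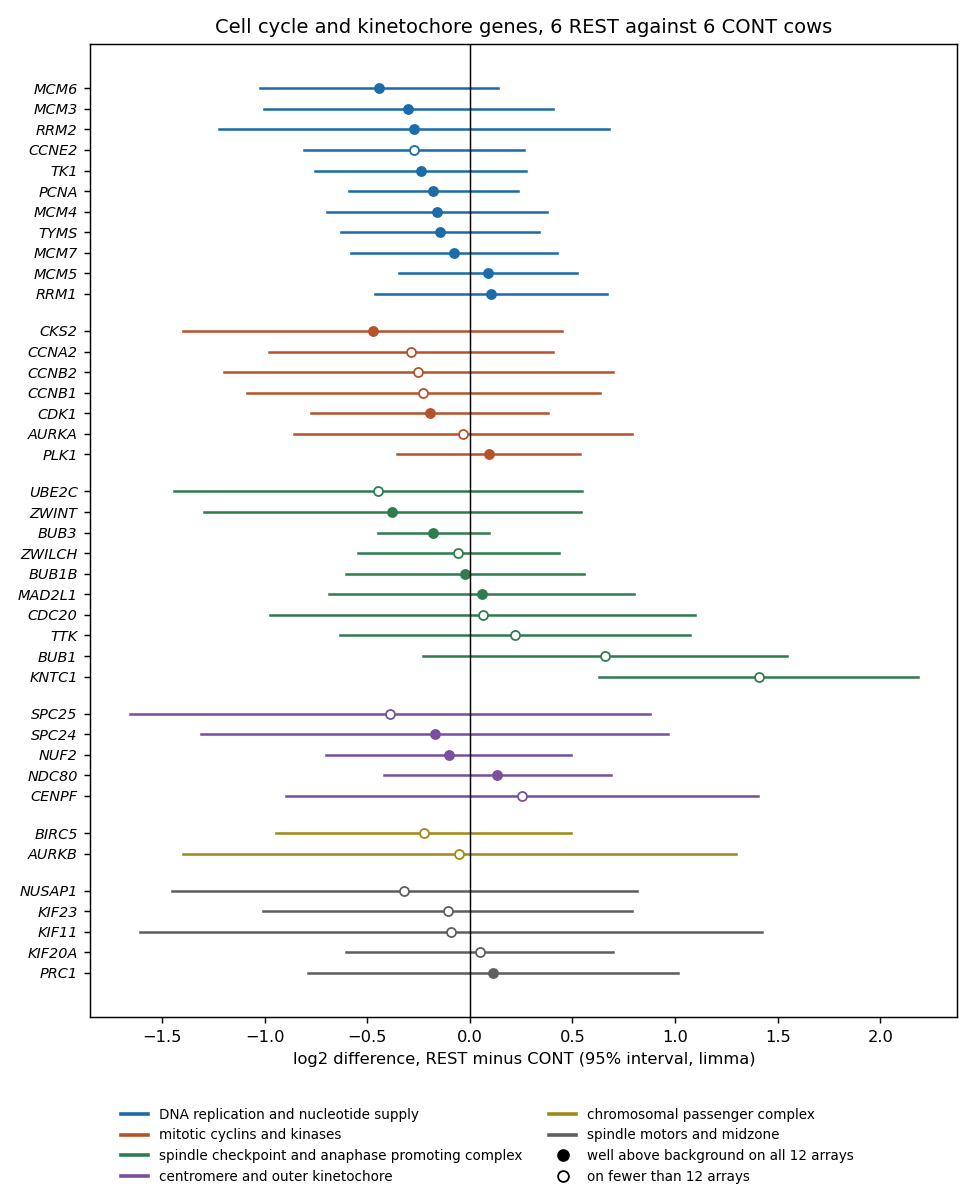
Log2 difference between 6 REST and 6 CONT cows for each of the 40 genes, grouped by role, with the 95% interval of limma. Filled points mark the 21 genes well above background on all 12 arrays, and KNTC1 is the one gene whose interval (0.63 to 2.18) does not reach 0. Most CONT spots of KNTC1 were not above background, so that the size of its difference is not a measured ratio.

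The DNA replication group comprises the sliding clamp, the replicative helicase and the enzymes of deoxynucleotide supply. Of its 11 measured genes, 9 had a lower and 2 a higher mean in REST, the median log2 difference was -0.18, and none had an unadjusted p under 0.05. With slide as a block 6 were lower and 5 higher, and with array intensity as a covariate 4 were lower and 7 higher. PCNA (NM_001034494) encodes the sliding clamp of the DNA polymerases. Its log2 signal was 1.12 at the lowest, 1.37 at the median and 2.09 at the highest in CONT, and 0.91, 1.23 and 1.55 in REST. The groups overlapped over most of their range, and only CONT cow 6 stood above all others. The log2 difference was -0.18 (standard error 0.19, unadjusted p = 0.368, limma).

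MCM3, MCM4, MCM5, MCM6 and MCM7 are subunits of the MCM helicase, which unwinds DNA ahead of the replication fork. For MCM6 (NM_001046234) the lowest, median and highest log2 signals were -2.45, -1.85 and -1.46 in CONT and -3.23, -2.19 and -1.74 in REST. In REST, cows 2 and 5 lay below every CONT cow and the other 4 lay among them. The difference of -0.44 (standard error 0.27, FC 0.735) gave an unadjusted p of 0.122 and an exact permutation p of 0.149, each two-sided. It was -0.20 with slide as a block, -0.066 with array intensity as a covariate and 0.079 within slide 1. MCM3 (NM_001013586) showed a similar picture, with -3.12, -1.83 and -1.47 in CONT and -3.08, -2.27 and -1.51 in REST. Here CONT cow 3 was as low as the lowest REST cows, and the difference was -0.30 (standard error 0.32). MCM7 (NM_001025345) had a lowest and median log2 signal of 1.22 and 1.48 in CONT and of 1.09 and 1.55 in REST, CONT cow 6 was the highest (2.40), and the difference was -0.078 (standard error 0.23). In MCM5 (NM_001075290) the mean was slightly higher in REST, with 1.76, 2.07 and 2.56 in CONT, 1.76, 2.25 and 2.74 in REST and a difference of 0.089 (standard error 0.20). The groups of MCM7 and of MCM5 overlapped over most of their range.

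Ribonucleotide reductase, which makes deoxynucleotides from ribonucleotides, is built from the products of RRM1 (log2 difference 0.10, standard error 0.26) and RRM2 (-0.27, standard error 0.44). TYMS, the enzyme of thymidylate synthesis, had a difference of -0.14 (standard error 0.22). TK1 (NM_001097572), the thymidine kinase of the salvage route, had log2 signals of 1.24, 1.44 and 1.97 in CONT and of 0.46, 1.30 and 1.96 in REST. REST cow 5 was the lowest and REST cow 6 was level with the highest CONT cow, and the difference was -0.24 (standard error 0.24, unadjusted p = 0.332). CCNE2, a cyclin of the entry into S phase, had no array on which it stood well above background, and no fold is given for it. Its values were -6.90, -6.55 and -5.72 in CONT and -7.08, -6.80 and -6.16 in REST.

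The mitotic cyclins and kinases drive entry into mitosis. Of 7 genes, 6 had a lower mean in REST and 1 (PLK1, a mitotic kinase) a higher mean, with a median log2 difference of -0.23 and no unadjusted p under 0.05. The count turned to 4 higher and 3 lower with slide as a block, and to 5 higher and 2 lower with array intensity as a covariate. CDK1 (NM_174016) encodes the kinase that starts mitosis. Its log2 signals were -4.36, -3.13 and -3.03 (lowest, median, highest) in CONT and -4.26, -3.37 and -3.07 in REST. A single cow was far below the rest of its group in CONT (cow 1), REST cow 6 was nearly as low, and the difference was -0.19 (standard error 0.27). CKS2 (NM_001113319), a small subunit of the cyclin-dependent kinase complexes, had -3.44, -2.40 and -1.79 in CONT and -4.17, -2.94 and -1.75 in REST. This was the most negative difference among the members (-0.47, FC 0.721), yet REST cow 1 had the highest signal of all 12 cows, REST cows 2 and 5 the lowest, and the standard error was 0.43 (unadjusted p = 0.288). A slide block brought the difference to -0.10 and array intensity as a covariate to 0.17 (limma), so that its direction was not settled. CCNA2 (NM_001075123), the cyclin of S phase and early mitosis, was detected above background on 4 arrays of CONT and 2 of REST. Its values overlapped over most of their range (CONT -5.00, -4.28 and -3.67, REST -5.36, -4.71 and -3.77), and only REST cow 4 lay below every CONT cow. Its difference was -0.29 (standard error 0.32). For the B-type cyclins the differences were -0.23 (CCNB1, standard error 0.40) and -0.25 (CCNB2, standard error 0.44), and for AURKA, a kinase of spindle poles, the difference was -0.032 (standard error 0.38).

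The spindle checkpoint and the anaphase promoting complex, which it restrains, were represented by 10 genes. Their means were lower in REST for 5 and higher for 5, the median log2 difference was 0.017, and KNTC1 was the gene with an unadjusted p under 0.05. Over all named genes 1.63% were higher in REST at that level. KNTC1 (NM_001192091) encodes a subunit of the RZZ complex, which brings the motor dynein and checkpoint proteins to kinetochores. It was among the genes that the study listed as changed on these same arrays, so that its direction here is no independent evidence.

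In CONT cows 1 to 6 the log2 signal of KNTC1 was -6.66, -5.98, -5.11, -5.27, -4.85 and -5.40. In REST cows 1 to 6 it was -3.95, -3.57, -3.78, -4.21, -3.90 and -5.42. The first 5 REST cows lay above every CONT cow, while REST cow 6 lay among them and was below 4 of the CONT cows. The CONT cows averaged -5.55 ± 0.66 (SD, n = 6) and the REST cows -4.14 ± 0.66 (SD, n = 6), which is a log2 difference of 1.41 (standard error 0.36). No fold is given, because most CONT spots were not above background. The log2 difference has the same limit, and its size is not a measured ratio. The unadjusted p was 0.00183 (limma), the 30th lowest of all probes, and the adjusted p was 1.00 (Benjamini-Hochberg). By exact permutation of the cows p was 0.0108 (two-sided), where 0.00216 is the smallest p that 6 against 6 cows allow.

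The signal of KNTC1 was close to the background of the arrays. It was called well above background on 1 CONT array (cow 6) and on 3 REST arrays (cows 2, 3 and 5). The intensity was 7.88, 16.6, 16.7, 22.5, 27.9 and 28.0 on the arrays of CONT cows 1 to 6, and 69.9, 32.7, 53.6, 30.7, 34.0 and 18.9 on those of REST cows 1 to 6. The negative controls of the same arrays had net signals of 17.4 to 58.2. The spot intensities are background-corrected whereas these net signals are not, so that spots and controls cannot be compared directly. The brightest spot (REST cow 1) lay on slide 1, where the negative controls were brightest, and was not called above background. Within slides, the log2 difference was 1.41 on slide 1, 2.77 on slide 2 and 0.66 on slide 3. Slide 1 has 1 REST array. The 1 CONT array of slide 2 is that of CONT cow 1, which had the lowest signal. It was 1.52 with slide as a block (unadjusted p = 0.00359, limma), 1.22 with array intensity as a covariate (unadjusted p = 0.0102) and 1.55 without the arrays of slide 1 (unadjusted p = 0.0118). With normexp background correction, which adds an offset of 50 to every spot, the difference was 0.20 (unadjusted p = 0.504, limma). Among the genes that were well above background on 6 arrays or fewer, 1.54% were higher in REST at an unadjusted p under 0.05.

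**Figure D2:**
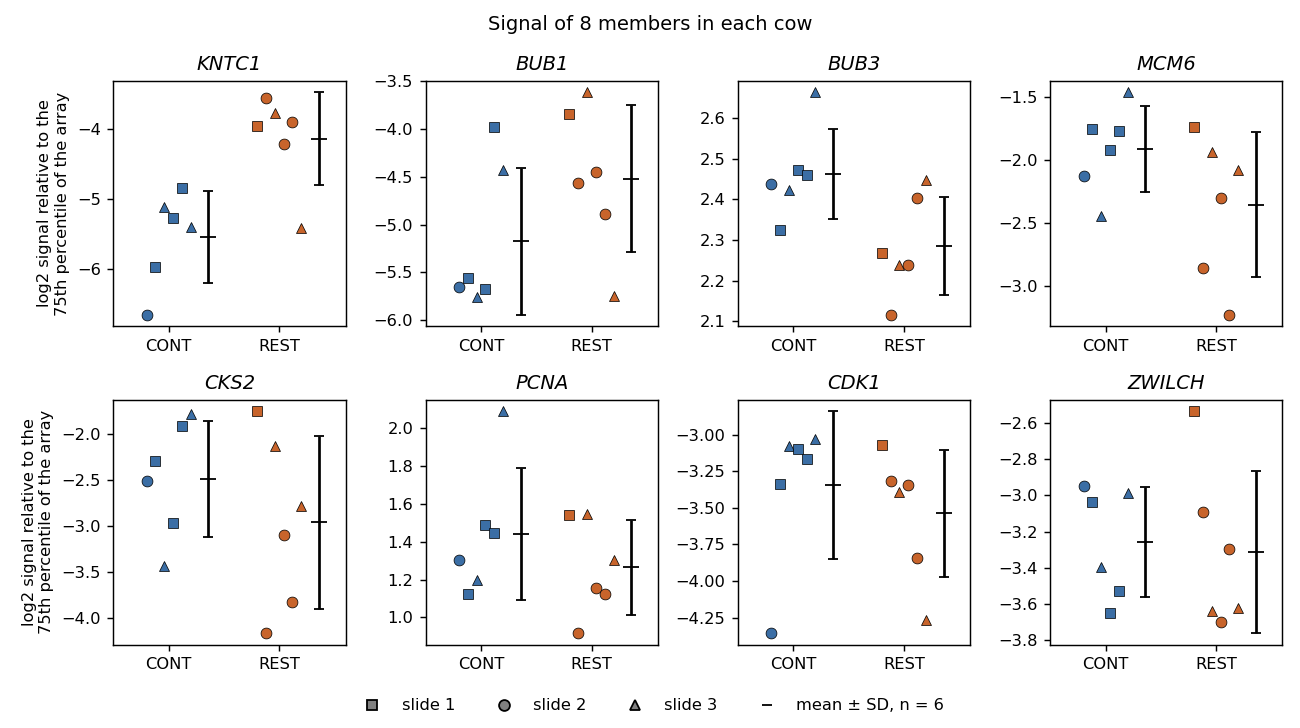
Log2 signal of 8 genes in each cow, relative to the 75th percentile of the array, with the mean ± SD of each group (n = 6) and the slide shown by the symbol. In KNTC1 the first 5 REST cows lie above all CONT cows and REST cow 6 lies at -5.42, whereas in the other 7 genes the groups overlap more widely.

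The other RZZ subunits had slightly lower means in REST, neither at an unadjusted p under 0.05 (limma). ZWILCH (NM_001102179) had -3.65, -3.22 and -2.95 in CONT and -3.70, -3.46 and -2.53 in REST, with a difference of -0.056 (standard error 0.23, 95% interval -0.55 to 0.43). ZW10, a subunit that is not one of the 45 genes and also works in membrane traffic, had a difference of -0.20 (standard error 0.18, interval -0.59 to 0.19). Whether these differences depart from that of KNTC1 was not tested. Across the 12 cows the correlation of KNTC1 with ZWILCH was -0.10, but it had opposite signs within CONT (-0.75) and within REST (0.39). With ZW10 it was -0.31 (Spearman -0.056), and -0.086 without the 2 farthest cows. SPDL1, which links dynein to the RZZ complex, was well above background on 5 arrays and had a difference of -0.20 (standard error 0.46).

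BUB1 and BUB1B encode checkpoint proteins at the kinetochore, and BUB3 encodes the partner that docks them there. BUB1 (NM_001102011) was well above background on 2 arrays of each group. Its values were -5.76, -5.61 and -3.98 (lowest, median, highest) in CONT and -5.75, -4.50 and -3.61 in REST. In CONT 4 cows clustered at the low end and cows 5 and 6 were higher, while in REST cow 6 alone was at the low end. The difference was 0.66 (standard error 0.41, unadjusted p = 0.133), and it had an unadjusted p under 0.05 without CONT cow 5 and without REST cow 6. It was 0.11 with normexp (unadjusted p = 0.684, limma) and 0.34 as the mean over its 3 probes, of which the dimmer ones had 0.053 and 0.31. Across cows BUB1 had a correlation of 0.69 with KNTC1 (Spearman 0.55, 0.49 within CONT and 0.75 within REST). Both are dim probes read on the same arrays. BUB1B differed by -0.024 (standard error 0.27).

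BUB3 (NM_001076177) varied little between cows. Its log2 signal was 2.32, 2.45 and 2.66 in CONT and 2.12, 2.25 and 2.45 in REST. All 6 REST cows lay below the CONT mean of 2.46 ± 0.11 (SD, n = 6), and the REST mean was 2.29 ± 0.12 (SD, n = 6). The difference was small (-0.18, FC 0.884) and had nearly the same size on each slide (-0.15, -0.18 and -0.20). The values of slides 1 and 2 rest on 1 REST and 1 CONT cow, respectively. The moderated test, which borrows its variance from all probes, gave an unadjusted p of 0.176, whereas the exact permutation test gave p = 0.0195, or 1.00 after Benjamini-Hochberg adjustment over the 12551 named genes with no missing value. KNTC1 and BUB3 were the 2 members with an exact p under 0.05 before adjustment, and 3.47% of these named genes had one. A further BUB3 probe had a difference of -0.16, and the dimmest of the 3 probes had -0.0023.

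ZWINT (NM_001040529), a docking protein of the outer kinetochore, had -2.91, -1.99 and -0.92 in CONT and -3.83, -2.09 and -1.51 in REST, and its difference of -0.38 was within its standard error of 0.42. UBE2C (NM_001037449), the ubiquitin-conjugating enzyme of the anaphase promoting complex, had an outlier spot on the array of CONT cow 2, which was set to missing and left 5 CONT cows. They had -3.61, -3.36 and -2.49 against -4.79, -3.82 and -2.32 in REST. REST held the highest and the lowest cow, and the difference was -0.45 (standard error 0.45). It was -0.78 with the outlier spot kept, -0.023 with slide as a block and -0.011 with array intensity as a covariate, none at an unadjusted p under 0.05 (limma). MAD2L1, the checkpoint protein that inhibits CDC20, differed by 0.058 (standard error 0.34), and CDC20, the activator of the anaphase promoting complex, by 0.062 (standard error 0.48). TTK, an upstream checkpoint kinase, was well above background on 1 CONT array and on no REST array, and no fold is given for it. Its values were -6.64, -6.08 and -5.19 in CONT and -6.79, -5.63 and -4.74 in REST.

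At the centromere and outer kinetochore, 5 of 7 genes were measured. Their means were higher in REST for 2 and lower for 3, but all 5 were higher once slide was a block or array intensity a covariate. NDC80, NUF2, SPC24 and SPC25 encode the complex of 4 proteins that grips microtubules. Their log2 differences were 0.13 (standard error 0.26), -0.10 (0.28), -0.17 (0.52) and -0.39 (0.58), and CENPF, a large kinetochore protein of late cycle cells, had 0.25 (0.53). In the chromosomal passenger complex, which corrects wrong attachments, the kinase AURKB differed by -0.051 (standard error 0.62) and BIRC5, which encodes survivin, by -0.23 (standard error 0.33). The spread between cows was wide in several of these genes. AURKB ranged from -6.97 to -3.72 in CONT and from -6.34 to -3.66 in REST, and SPC25 from -6.82 to -4.01 and from -6.62 to -3.94. In SPC24 the same held on arrays that were all well above background (-2.83 to -0.88 in CONT, -3.18 to -0.28 in REST).

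Among the spindle motors and midzone proteins, the differences were 0.048 for KIF20A (standard error 0.30) and -0.11 for KIF23 (standard error 0.41), kinesins of cytokinesis. They were 0.11 for PRC1 (standard error 0.42), which bundles midzone microtubules, and -0.32 for NUSAP1 (standard error 0.52), a spindle-associated protein. KIF11 (NM_001192185), the kinesin that pushes spindle poles apart, was well above background on 1 array of each group. Its difference was -0.090 (standard error 0.70) but 0.86 with slide as a block (unadjusted p = 0.022) and 1.01 without the arrays of slide 1 (unadjusted p = 0.0334), so that its direction was not settled. On slide 1 its log2 signals were -4.18, -4.84 and -4.97 in the 3 CONT cows (2, 4 and 5) and -4.55 in REST cow 1, which are the 4 highest of all 12 cows. That slide also had the brightest negative controls, whose part in these values was not tested.

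A wider list of 152 other cell cycle genes, of which 129 had a probe, was read in the same fit. The mean was lower in REST for 81 and higher for 48, the median log2 difference was -0.090, and this split was not stable (66 higher and 63 lower with slide as a block, 69 and 60 with array intensity as a covariate). In this list 2 genes (1.55%) had an unadjusted p under 0.05, against 2.64% of all named genes. None passed the adjusted threshold. ORC5, a subunit of the origin recognition complex, had -2.14, -1.54 and -1.25 in CONT and -2.51, -2.16 and -1.58 in REST. In REST, 3 cows lay below every CONT cow, and the difference was -0.47 (standard error 0.22, unadjusted p = 0.0487). CENPO, of the inner kinetochore, was detected above background on 3 arrays of CONT and 5 of REST and had -5.37, -4.78 and -4.25 against -4.81, -4.25 and -2.98. The difference was 0.72 (standard error 0.33, unadjusted p = 0.0471), and it was 1.56 within slide 2 and -0.11 within slide 1. In the following fits neither gene had an unadjusted p under 0.05 (limma). ORC5 had -0.25 with slide as a block, -0.31 with normexp, -0.30 with array intensity as a covariate and -0.11 as the mean over its 3 probes. CENPO had 0.53 with slide as a block, 0.19 with normexp and 0.32 with array intensity as a covariate.

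By role, the E2F and DREAM factors, which switch cell cycle transcription on and off, had 2 higher and 11 lower means (median -0.18). The G1 cyclins and kinases had 3 higher and 4 lower (median -0.068), the CDK inhibitors 3 and 3 (median -0.012) and the replication machinery 12 and 12 (median -0.022). For origin firing the split was 6 higher and 10 lower (median -0.075), for other centromere and kinetochore genes 12 and 20 (median -0.13) and for mitosis and cytokinesis 10 and 21 (median -0.11). These splits moved as well, since slide as a block gave 8 and 8 for origin firing, 17 and 15 for other centromere and kinetochore genes and 17 and 14 for mitosis and cytokinesis. The covariate of array intensity gave 9 and 7, 17 and 15, and 17 and 14. In both fits lower means outnumbered higher ones for the E2F and DREAM factors (4 and 9, 5 and 8) and for the G1 cyclins and kinases (2 and 5, 1 and 6). The replication machinery went to 14 and 10 with slide as a block and to 17 and 7 with array intensity, and the CDK inhibitors to 4 and 2 and to 3 and 3. Among single genes that were well above background on all arrays, the G1 cyclin CCND1 differed by -0.11 (standard error 0.31), the kinase CDK4 by -0.28 (0.19), and the CDK inhibitor CDKN1A by 0.18 (0.36).

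In 38 of the 40 members the difference between diets did not exceed the SD of both groups, and KNTC1 and BUB3 were the exceptions. Each of the 21 members that were well above background on all 12 arrays was centred on its mean over the cows, and the centred values were averaged per cow. This mean was -0.16, 0.0048, -0.30, 0.16, 0.22 and 0.46 in CONT cows 1 to 6, and 0.32, -0.33, 0.23, -0.036, -0.54 and -0.046 in REST cows 1 to 6. The highest cow (CONT cow 6) and the lowest (REST cow 5) were 1.00 log2 units apart. CONT averaged 0.065 ± 0.27 (SD, n = 6) and REST -0.065 ± 0.33 (SD, n = 6), so that the difference of -0.13 was smaller than either SD. In CONT cow 6, 16 of the 21 genes were above their own mean, against 4 in REST cow 5.

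**Figure D3:**
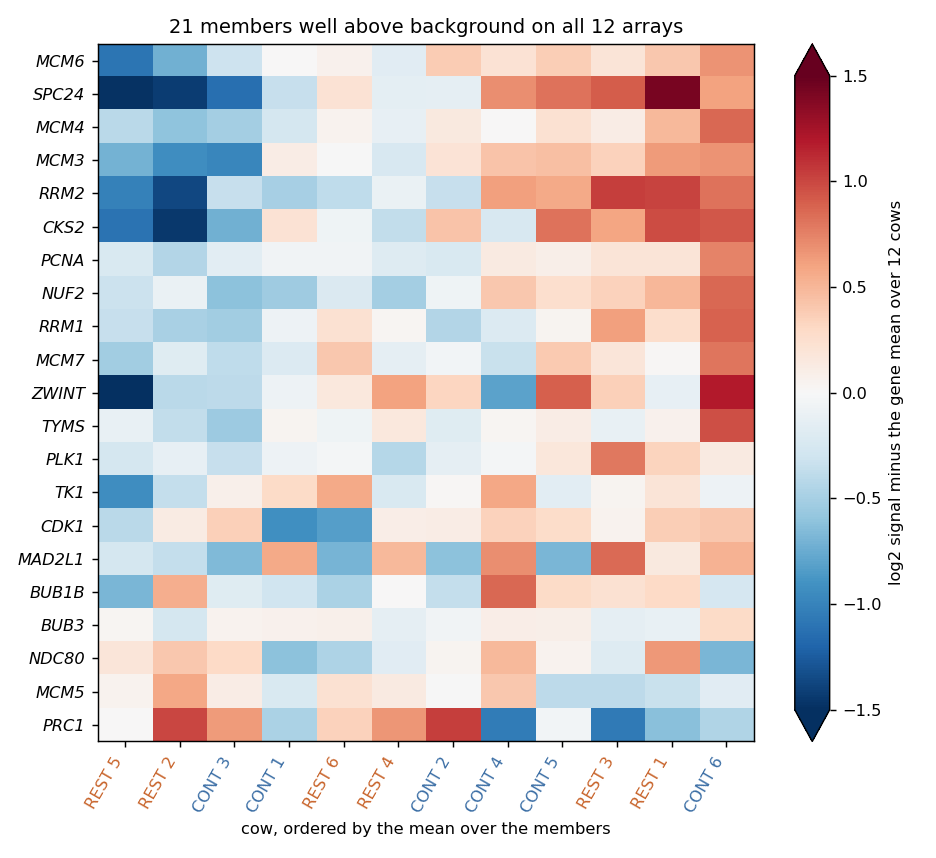
Centred log2 signal of the 21 members (rows) in the 12 cows (columns), with cows ordered by their mean over the members and coloured by diet. CONT and REST cows are mixed along the order, most rows run from blue to red, and MCM5, PRC1 and NDC80 at the bottom run the other way.

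Most of these genes moved together over the cows. The correlation between 2 members had a median of 0.35 over the 210 pairs, against 0.0065 over all pairs of the 9000 genes detected on every array, and 0.33 after the diet means were removed. It exceeded 0.5 in 40% of the member pairs and in 14.1% of all pairs. All pairs share the same 12 arrays and their scaling, and these values are descriptions. The mean of the 10 replication genes and that of the 11 others had a correlation of 0.86. The genes closest to the mean of the others were MCM6 (0.91), SPC24 (0.90), MCM4 (0.90), MCM3 (0.89) and RRM2 (0.89). Partners in a complex were in part close, as were SPC24 and SPC25 (0.83), RRM1 and RRM2 (0.72), AURKB and BIRC5 (0.74) and MCM3 and MCM6 (0.89). NDC80 and NUF2, which form a dimer, had 0.048, but -0.16 within CONT, 0.45 within REST and 0.31 without the 2 farthest cows. CDK1 and CCNB1 had 0.36 (0.67 within CONT and 0.025 within REST). The closest pairs looked at were SPC24 with NUSAP1 (0.96) and AURKB with SPC25 (0.94). CKS2 with SPC24, from different complexes, had 0.88, so that closeness was not limited to partners. Of the genes in these pairs, SPC25 and AURKB were well above background on 6 arrays, BIRC5 on 5, CCNB1 on 4 and NUSAP1 on 11. The part of background signal in their correlations was not tested. KNTC1 did not follow the mean (-0.11).

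PRC1, MCM5 and NDC80 ran against the others, with correlations of -0.62, -0.56 and -0.25 to the mean of the remaining members. For MCM5, whose product sits in the same helicase ring as those of MCM3, MCM4, MCM6 and MCM7, the correlation was -0.52 with MCM6 and -0.56 with MCM4. Its 3 probes, each well above background on all arrays, had correlations of 0.95, 0.68 and 0.76 with each other. The brightest probes of PRC1 also had 0.93 with each other. For MCM4 the 5 probes did not read alike, since probe 3 in the order of brightness had correlations of -0.72, -0.63, -0.69 and -0.58 with the other 4, which had 0.85 to 0.96 among themselves. That probe had a log2 difference of 0.13 (standard error 0.26) against -0.16 for the brightest.

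The mean of the members moved opposite to the milk-producing epithelium genes. The mean of the 8 milk-producing genes had a Pearson r of -0.91 with it (Spearman -0.92) over the 12 cows, -0.91 within CONT and -0.90 within REST, and -0.90 without the 2 cows farthest from the median. After removal of the slide means r was -0.90, and with quantile normalization it was -0.81. Of the 21 members, 18 had a negative r to the milk genes, with a median of -0.75, against 50.2% of all genes detected on every array and a median of -0.0058. The members also followed the intensity of the array, with r of 0.80 (Spearman 0.78) between their mean and the log2 75th percentile, 0.69 without the 2 farthest cows and 0.62 after removal of the slide means. The milk genes themselves had r of -0.80 with that percentile. Cows with little milk gene signal thus lay on brighter arrays and had higher cell cycle signals, and the part of array intensity in the relation was not tested. Slides hold 4 arrays each, too few for a correlation within a slide.

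**Figure D4:**
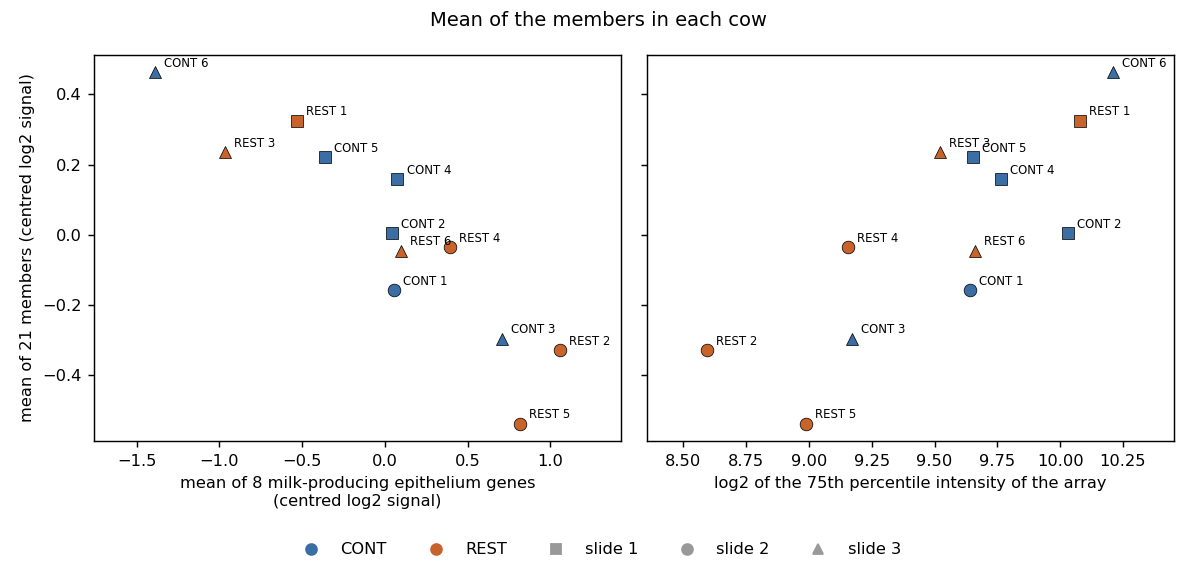
Mean centred log2 signal of the 21 members in each cow, against the mean of 8 milk-producing epithelium genes (left) and against the log2 75th percentile intensity of the array (right). Colours give the diet and symbols the slide, and the points run downwards on the left (r = -0.91) and upwards on the right (r = 0.80) in both diets.

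Other cell type markers moved with the members as well, in both directions. The mean of 7 fibroblast genes had an r of 0.76 with the mean of the members. It was 0.70 for natural killer cells (0.43 without the 2 farthest cows), 0.64 for myoepithelium and 0.64 for luminal epithelium, the opposite sign to the milk-producing genes. For T cells r was 0.55, for pan leukocyte genes 0.53 (0.086 without the 2 farthest cows), for neutrophils 0.35 and for macrophages and monocytes 0.10. The sign of these last lists differed between diets, with -0.12 in CONT and 0.67 in REST for neutrophils and -0.76 and 0.38 for macrophages and monocytes. Negative values were found for erythroid cells (-0.70), adipocytes (-0.68, 1 gene), endothelium (-0.57) and B and plasma cells (-0.57, and -0.17 without the 2 farthest cows). Between diets, all 8 milk-producing genes had a higher mean in REST (median 0.33), none at an unadjusted p under 0.05. This rested in large part on CONT cow 6, which had the lowest milk gene mean, since without it 4 genes were higher and 4 lower (median 0.011). The median was also smaller without REST cow 2 (0.12) and without REST cow 5 (0.16). Their summed signal was 1613 to 5143 times the 75th percentile in CONT and 2367 to 6797 times in REST. All 7 endothelium genes also had a higher mean in REST (median 0.37), with VWF at an unadjusted p under 0.05 (limma). Over all named genes, 43.5% had a higher mean and 1.63% were higher at that level. The summed endothelium signal was 3.29 to 12.01 in CONT and 9.21 to 15.7 in REST. Here too CONT cow 6 was far below the other cows, and without it 6 genes were higher and the median was 0.15. Without REST cow 3, VWF no longer had an unadjusted p under 0.05 (limma). Of the 7 fibroblast genes, 6 had a lower mean in REST and 3 (COL1A1, COL1A2 and LUM) an unadjusted p under 0.05 (limma). Over all named genes, 56.5% had a lower mean and 1.01% were lower at that level. The summed fibroblast signal was 50.2 to 68.7 in CONT and 23.6 to 70.2 in REST. Only LUM stayed at an unadjusted p under 0.05 whichever single cow was omitted. In other lists, CD3D (0.60, T cells) and MS4A1 (0.72, B and plasma cells) were higher in REST at an unadjusted p under 0.05 (limma). MS4A1 was well above background on 4 arrays, and neither stayed at that level whichever single cow was omitted. Their lists were split, with 3 genes higher and 7 lower for T cells and 3 and 3 for B and plasma cells. Of the adipocyte genes, 3 had a higher and 1 a lower mean in REST, none at that level. FABP4, the only one well above background on all 12 arrays, differed by 1.20 (standard error 0.62). Without CONT cow 6 its difference was 0.59. LEP, well above background on 5 arrays, differed by -1.02 (standard error 0.72). The part of these shifts in the lower means of the members was not tested.

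Among 8821 genes outside the lists that were detected on every array, those with a pattern most like the mean of the members included PARP12, C17H4orf46, ICAM1, ZFYVE19, SELENON, ALAS1, NCOA5, TBL3 and ACLY (r of 0.91 to 0.94 over the 12 cows). The most opposed were RPL7A, RORA, TPD52L1, FAM234A and GPD1L (r of -0.96 to -0.93). Because the best of many genes were taken over few cows, these values describe the ranking alone.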

How the data were processed

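Total RNA (100 ng) of 12 biopsies was labeled with Cy3 by the authors and hybridized to bovine one-color Agilent arrays. The deposited values are spot intensities from Feature Extraction (version 11.0.1.1 per the file headers), background-corrected by the authors and not normalized between arrays. The deposited series matrix holds the same intensities. Here, control spots were left out, outlier spots were set to missing, the log2 75th percentile of each array was subtracted from its log2 intensities, spots of a probe were averaged, and 43653 probes were tested (205 with a missing value). RefSeq accessions named 26832 probes (12639 genes, RefSeq table of ARS-UCD2.0), and no positions are given because the array annotation uses another build.

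REST and CONT were compared with limma 3.58.1 (R 4.3.3; lmFit and eBayes, two-sided, no covariate, no filter on dim probes), with Benjamini-Hochberg adjustment over all probes and a threshold of 0.05. Westfall-Young adjustment over 100 splits, which the methods name, was an alternative. The exact permutation test enumerated 924 splits of the cows. The procedure was tested on simulated data, no result of which is reported or relied on here. The 6 cows per group limit the precision.

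The members and lists were chosen with earlier results of these data known. Named by rule were KNTC1, PCNA and CDK1 (with MKI67 and TOP2A, which had no probe), the 10 lowest p-values among members well above background on at least 6 arrays, the 3 members of highest and the 3 of lowest mean signal, and other cell cycle genes at an unadjusted p under 0.05. The remaining members, ZW10, SPDL1 and the marker genes were described in addition. Alternatives were quantile normalization, normexp (offset 50), the series matrix, a filter on dim probes, outlier spots kept, slide as a block, values within slides, an intensity trend, the mean over a gene's probes and leaving out each cow. Array intensity as a covariate, leaving out slide 1 and counting only members detected on all 12 arrays were added after seeing the data. A planned count of promoter motifs was not run. Of the genes most like the mean of the members, 1 is not reported here. Figures were drawn with matplotlib 3.10.9.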

Additional observations from a re-analysis of the deposited data

Results flagged for a closer look

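In 4 of the 82 groups of cows examined (each member, and the mean of the members, in each diet), 1 cow stood apart from the others of its group, where chance alone gives about 4.1. The log2 signal of MCM3 was -3.12 in CONT cow 3, and the next lowest CONT cow had -2.03. That of CDK1 was -4.36 in CONT cow 1, below -3.33 in the next cow. KNTC1 had -5.42 in REST cow 6, against -4.21 to -3.57 in the other 5 REST cows. KIF23 had -5.84 in CONT cow 3, and the other CONT cows had -4.35 to -3.88.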

How the results depend on the processing

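No paired analysis was possible because the labels give every cow the same replicate text, and the numbers used here follow the order of the records and pair nothing. No probe passed the Benjamini-Hochberg threshold in any of these fits, and the smallest adjusted p of a named gene was 0.49 (KNTC1 without REST cow 6). The median of the members was 0.18 with array intensity as a covariate and 0.33, -0.19 and 0.15 within slides 1 to 3, and with single cows left out it ran from -0.25 to -0.020. The median of the other cell cycle genes ran from -0.12 to -0.048 with single cows left out, but was 0.0029 with slide as a block, 0.011 with array intensity as a covariate and 0.040, 0.070 and 0.038 within the 3 slides. The number of members at an unadjusted p under 0.05 was 0 with normexp and 0 with the filter on dim probes, which removes KNTC1. It was 2 (KNTC1 and KIF11) with slide as a block, 2 without the arrays of slide 1, and 1 to 2 with single cows left out. The number of members without overlap was 0 to 1 with single cows left out (KNTC1 without REST cow 6) and 1 (KIF11) without the arrays of slide 1. The difference of KNTC1 was 2.77 within slide 2 and 0.66 within slide 3, and 1.18 to 1.66 with single cows left out. Over all 40 members the sign turned in 21 with array intensity as a covariate, in 16 with slide as a block, in 7 with the mean over all probes, in 6 without the arrays of slide 1, in 4 with normexp and in 1 with quantile normalization. Among the members named by rule, it turned with array intensity for PCNA (0.017), CKS2 (0.17), MCM3 (0.18), MCM5 (-0.071), MCM7 (0.14) and KIF11 (0.39). With slide as a block these were MCM7 (0.015) and KIF11 (0.86), without the arrays of slide 1 KIF11 (1.01), with normexp UBE2C (0.052), and with the mean over all probes CCNA2 (0.056) and KIF11 (0.069). With single cows left out, MCM5 ran from -0.018 to 0.18, MCM7 from -0.17 to 0.074 and KIF11 from -0.46 to 0.29. The cause was not tested. Signal over background limits the 18 members detected on 1 to 11 arrays, and CCNE2.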
